A study of Mus musculus with 10 samples.

Results

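The histone deacetylase (HDAC) genes of classes I, II and IV were examined in LSK cells, the bone marrow fraction without lineage markers and with Sca-1 and c-Kit on the surface, in which the hematopoietic stem cells and multipotent progenitors are found. The 10 genes were chosen by symbol from the 25078 genes of the count table. No cut on their measured values was used, but earlier results of these data were known. They were Hdac1, Hdac2, Hdac3 and Hdac8 of class I, Hdac4, Hdac5 and Hdac7 of class IIa, Hdac6 and Hdac10 of class IIb, and Hdac11 of class IV. RNA was sequenced from 5 CM mice (Cbfb56M/+/Mx1-Cre) and 5 CM/miR-126Δ/Δ mice (Cbfb56M/+/miR-126flox/flox/Mx1-Cre), with 1 library per mouse. All 10 mice carried the Cbfb-MYH11 fusion knock-in allele and Mx1-Cre, were of both sexes on a C57BL/6 background, received poly(I:C) as young adults and were sampled 6 weeks later, before leukemia. The Mx1 promoter responds to interferon, so poly(I:C) switched on the fusion in both genotypes and also deleted both copies of miR-126 in CM/miR-126Δ/Δ mice; recombination is not limited to LSK cells. No mice without the fusion were in the libraries analysed here, and the comparison is therefore of CM cells with and without miR-126.

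HDAC enzymes remove acetyl groups from lysines of histones and other proteins, and histone acetylation is a mark of open, transcribed chromatin. Class I enzymes are mostly nuclear. Hdac1 and Hdac2 work in the NuRD, SIN3 and CoREST corepressor complexes, Hdac3 in the NCoR/SMRT complex, and Hdac8 outside these complexes, with the cohesin subunit Smc3 as its best known substrate. Class IIa enzymes have little activity of their own on acetyl-lysine, bind MEF2 transcription factors and leave the nucleus with 14-3-3 proteins. Class IIb holds Hdac6, a cytoplasmic tubulin deacetylase, and Hdac10, which deacetylates polyamines. The study linked HDAC8 protein to the fusion and to the production of miR-126, which is the question that gives the family its place here; transcript levels do not measure protein or enzyme activity.

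The deleted microRNA and the sites that could pair with it are shown first, since a gene that miR-126 represses directly could carry such a site. The mature strand of miR-126a-3p lies on the plus strand of chromosome 2 at chr2:26591402-26591423 (GRCm38.p6, sequence from RefSeq), within the Egfl7 gene. Its seed, bases 2 to 8, is in capitals:
miR-126a-3p: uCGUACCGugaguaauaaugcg
The 3′ untranslated regions of the 10 genes, taken from GENCODE M1 transcripts, were searched on the transcript strand for the 6 letters that pair with bases 2 to 7 of the microRNA (GGTACG) and for the 7 that pair with the whole seed (CGGTACG, which contains the first). Hdac2 held 1 match to the 6 letters, 114 bases into its 2153-base region, and the other 9 genes held 0. None of the 10 held the 7 letters. The transcripts searched can be shorter than the gene models counted. The longest Hdac4 transcript had 3937 bases against 8100 exon bases counted, and that of Hdac8 had 1936 against 3100. Their regions had 1227 and 507 bases, and sites outside the regions searched would be missed. Among 9638 expressed genes (mean RPKM of 1 or more in a genotype) with a region to search, 3.58% held the 6 letters and 0.259% the 7. The Hdac2 match is set beside those of Spred1 and Plk2, which are described as miR-126 targets, with the 6 letters in capitals:
Hdac2: tgcatgcatgtGGTACGcaccatacatg
Spred1: actaaatgtaaGGTACGaactatgacat
Plk2: ggacaggtggtGGTACGaatacaattcc
The Spred1 and Plk2 regions also held GGTACGA, with the A opposite base 1 of the microRNA, whereas the Hdac2 region had no match to it. These matches describe letters only and no binding was measured.

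The libraries held between 23649233 and 33202086 counts in CM mice and between 24141663 and 26615091 in CM/miR-126Δ/Δ mice, and the HDAC genes had from 323 to 4586 counts each per library. The precursor Mir126a (chr2:26591357-26591429, plus strand) was counted 0 to 5 times in each CM mouse and never in CM/miR-126Δ/Δ mice, too rarely to check the deletion mouse by mouse. The LSK markers Kit and Cd34 were abundant, at 702 to 1001 CPM (counts scaled to a common library size) and 791 to 1025 CPM. The summed markers of T and NK, B and erythroid cells stayed at 50.7 CPM or lower. Those of monocyte-macrophage cells summed to 141 to 298 CPM, of mast cells and basophils to 132 to 290 CPM and of endothelial cells to 180 to 230 CPM, with overlapping genotypes, and progenitors themselves express some of these genes. The 6 granulocyte markers varied most: their sum ran from 2.00 to 153.7 CPM in CM mice and from 1.48 to 348.9 CPM in CM/miR-126Δ/Δ mice, with the highest values in CM mouse 5 and CM/miR-126Δ/Δ mouse 4. The 4 monocyte-macrophage, 4 endothelial and 6 T and NK markers were all lower in CM/miR-126Δ/Δ mice (median log2 fold changes -0.30, -0.23 and -0.12). All 6 granulocyte markers were higher (median 0.87), and the other lists were mixed. By edgeR, 1 monocyte-macrophage marker had an unadjusted p under 0.05 and 0 an adjusted p under 0.05. The part of cell composition in the HDAC values was not tested. The share of counts on the ribosomal transcript Rn45s was 14.8 to 18.5% in CM mice and 16.6 to 22.6% in CM/miR-126Δ/Δ mice. In both genotypes, Xist and Y-linked counts marked mice 1 to 3 as female and mice 4 and 5 as male.

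All 10 HDAC genes were transcribed in LSK cells, at levels that spanned 9.54-fold from the highest to the lowest. Per length, Hdac2 was highest at 59.7 RPKM ± 3.84 (CPM per kilobase of exon, mean ± SD over the 10 libraries) and stood at the 93.3rd percentile of the 11682 expressed genes. Hdac3 followed at 37.5 RPKM ± 1.80 and Hdac7 at 24.7 RPKM ± 2.10. Each of these steps, and the step from Hdac7 down to Hdac1, had the same direction in 10 of 10 libraries.

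**Figure D1:**
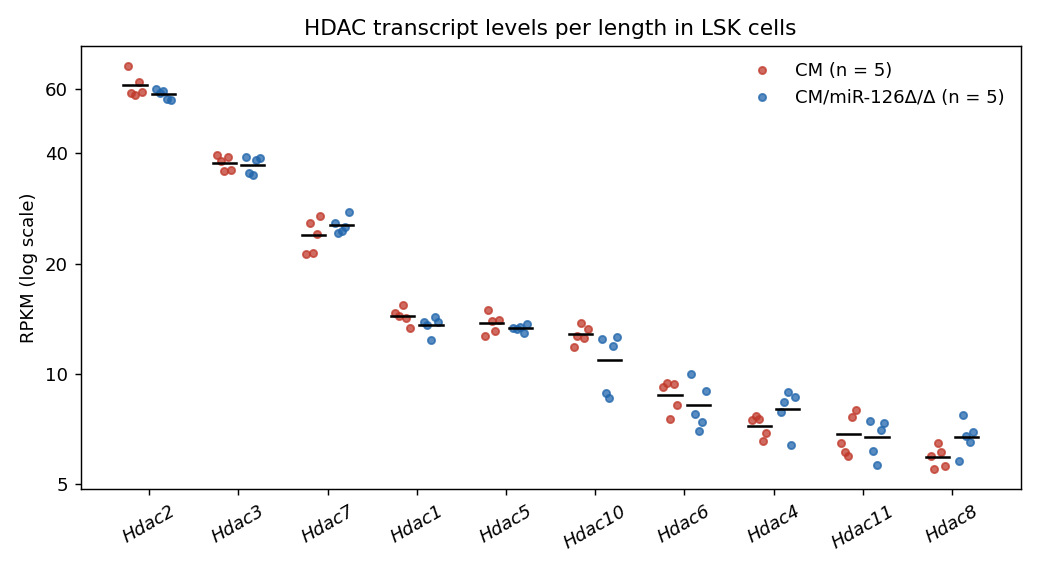
RPKM of the 10 HDAC genes (log axis), ordered by their mean, with 1 point per mouse and a bar at the mean of the 5 mice of each genotype. Hdac2, Hdac3 and Hdac7 stand above the other genes in every library, and the points of both genotypes overlap for each gene.

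Below these, neighbours lay closer together. Hdac1 had 14.0 RPKM ± 0.816 and Hdac5 had 13.6 RPKM ± 0.650, and Hdac1 exceeded Hdac5 in only 7 of 10 libraries. Hdac10, at 11.9 RPKM ± 1.74, lay below Hdac5 and above Hdac6 in 10 of 10 libraries. Hdac6 had 8.49 RPKM ± 1.04, Hdac4 had 7.63 RPKM ± 0.858, Hdac11 had 6.78 RPKM ± 0.809 and Hdac8 had 6.34 RPKM ± 0.686. The order within this last group was not kept: Hdac6 exceeded Hdac4 in 8, Hdac4 exceeded Hdac11 in 7 and Hdac11 exceeded Hdac8 in 7 of 10 libraries. By this measure Hdac8, the member the study singled out, was among the least abundant HDAC transcripts, at the 30.4th percentile. Hdac2 was from 7.59 to 11.6 times as high in the single libraries. The measure depends on the exon length used. Hdac8 was divided by 3100 exon bases and Hdac4 by 8100, against 1936 and 3937 bases in their longest GENCODE M1 transcripts. Hdac2 went the other way, with 2004 exon bases against a transcript of 3250. With other lengths the order, and the place of Hdac8 in it, could differ.

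The level of Hdac1 carries a further doubt. The mouse reference genome (NCBIM37) held 3 further copies of at least 500 bases of its 2038-base transcript, at 93.8 to 98.8% identity, the longest of them 2009 bases. Of the 51-base stretches of the Hdac1 transcript, 76.0% occurred exactly elsewhere in the genome, and 0% of those of the other 9 genes did. How reads with several positions were counted is not given in the sources used here, and reads from Hdac1 may have been lost to or shared with these copies. Its RPKM was still taken over all 1971 exon bases. The place of Hdac1 in the order above and the class I share below carry this doubt. The span of Hdac7 shares 29 bases with Slc48a1 on the opposite strand, which had 2028 to 3290 counts, and Hdac5 and Hdac6 overlap listed genes with 0 counts.

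By RPKM over these exon lengths, class I supplied most of the HDAC transcripts. In CM mice, class I made up 61.9% ± 2.23 of the summed RPKM of the 10 genes (SD, n = 5) and in CM/miR-126Δ/Δ mice 61.4% ± 1.36. Class IIa made up 23.3% ± 1.80 and 24.9% ± 0.930, class IIb 11.2% ± 0.343 and 10.1% ± 1.25, and class IV 3.55% ± 0.467 and 3.56% ± 0.314. The sum over the 10 genes was 192.8 RPKM ± 4.79 in CM mice and 188.4 RPKM ± 6.33 in CM/miR-126Δ/Δ mice. Since the fold changes of the members are compared below, these shares are given without a test.

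Loss of miR-126 was accompanied by no HDAC gene that passed the test. By edgeR's quasi-likelihood F-test with Benjamini-Hochberg adjustment over 18747 genes, 0 of 10 reached an adjusted p under 0.05 (background 0.0107% of genes tested and 0.0171% of expressed genes), with adjusted p from 0.757 to 0.976. None met the study's cutoffs, an unadjusted p of at most 0.01 with a 1.5-fold change and a mean RPKM of 1 or more (background 0.288% of genes tested and 0.462% of expressed genes). At an unadjusted p under 0.05 the count was 0 of 10 (background 6.61% of genes tested and 7.92% of expressed genes), with 1 by DESeq2 (Hdac8; background 6.07%) and 2 with the mouse number as a block (Hdac4 and Hdac10; background 8.89%). None of the 10 had genotypes whose CPM values did not overlap (background 1.1% of genes tested and 1.38% of expressed genes).

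The intervals were narrow enough to bound the differences. The 95% interval of every HDAC gene lay within a 1.5-fold change in either direction, as did that of 86.7% of expressed genes (55.4% of all genes tested), so this is common among genes of such levels. The widest limits were a level 27.9% lower, for Hdac10, and 30.3% higher, for Hdac8. Of the 10 log2 fold changes, 3 were above and 7 below 0, as were 4963 and 6719 of the 11682 expressed genes. The median was -0.03, against -0.02 for expressed genes. With upper-quartile factors Hdac3 and Hdac11 lay just above 0. The median size of the log2 fold change was 0.09 for the HDAC genes and 0.08 for those genes. In bulk cells, fewer cells of a type and less RNA per cell cannot be told apart.

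**Figure D2:**
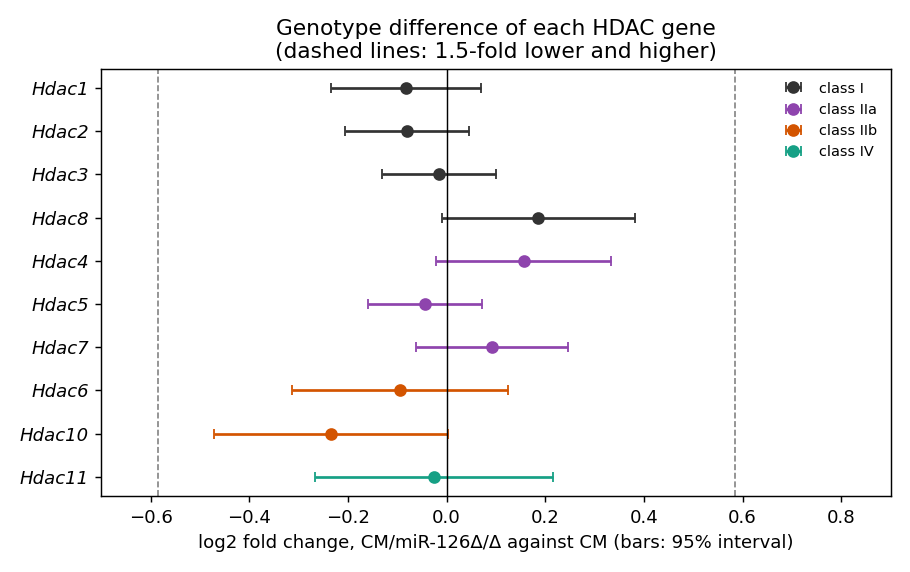
Log2 fold change of each HDAC gene in CM/miR-126Δ/Δ against CM LSK cells, with its 95% interval from edgeR and dashed lines at a 1.5-fold change. All 10 intervals lie between the dashed lines and include 0, and Hdac8 and Hdac10 lie farthest from 0, on opposite sides.

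Within class I, Hdac8 had the largest difference. Hdac8 (chrX:102284638-102505158, minus strand, mm10), the deacetylase of Smc3, had 18.5, 17.02, 20.1, 19.0 and 17.4 CPM in CM mice 1 to 5 and 18.0, 23.9, 20.9, 20.2 and 21.6 CPM in CM/miR-126Δ/Δ mice 1 to 5. CM/miR-126Δ/Δ mice 2 to 5 stood above all CM mice, although mouse 4 did so by little, and mouse 1 fell inside the CM range. The means were 18.4 ± 1.24 and 20.9 ± 2.15 CPM (SD, n = 5), a log2 fold change of 0.19 with a standard error of 0.0914 and a 95% interval from -0.01 to 0.38. The difference did not pass the test (edgeR p = 0.0609, adjusted p = 0.764), and an exact two-sided permutation test of the CPM values gave p = 0.0556, where the smallest p possible is 0.00794. By share of the summed HDAC RPKM, Hdac8 made up 3.08% ± 0.252 in CM and 3.59% ± 0.441 in CM/miR-126Δ/Δ mice. Leaving out 1 library at a time moved the log2 fold change between 0.13, without CM/miR-126Δ/Δ mouse 2, and 0.25, without CM/miR-126Δ/Δ mouse 1, and left the adjusted p at 0.517 or higher.

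The other class I genes differed less. Hdac2 (chr10:36974544-37001888, plus strand), a catalytic subunit of NuRD, SIN3 and CoREST and the gene with the 6-letter match shown above, had 138.8, 117.1, 116.0, 125.4 and 117.7 CPM in CM mice and 120.3, 117.3, 119.0, 113.2 and 112.0 CPM in CM/miR-126Δ/Δ mice. CM mouse 1 was the highest of all and the remaining values of both genotypes overlapped. The log2 fold change was -0.08 with a standard error of 0.0586 and a 95% interval from -0.21 to 0.05 (edgeR adjusted p = 0.765). Without CM mouse 1 the log2 fold change was -0.02, so most of the lower mean in CM/miR-126Δ/Δ mice rested on that library.

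Hdac1 (chr4:129516104-129542646, minus strand), which shares the complexes of Hdac2, had 26.3 to 30.4 CPM in CM and 24.4 to 28.2 CPM in CM/miR-126Δ/Δ mice, with a log2 fold change of -0.08 (standard error 0.0712); this value carries the doubt from the copies described above. Hdac3 (chr18:37936971-37954988, minus strand), the catalytic subunit of NCoR/SMRT, had 72.0 to 79.2 CPM in CM and 69.9 to 78.3 CPM in CM/miR-126Δ/Δ mice. Its log2 fold change of -0.02 had a standard error of 0.0541 and a 95% interval from -0.13 to 0.10, and its sign turned with upper-quartile scaling and with stricter filters on low genes. Hdac3 and Hdac1 varied little between mice: the SD of log2 CPM within genotypes was 0.0733 for Hdac3, at the 7.52nd percentile of expressed genes, and 0.0773 for Hdac1.

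Among the class IIa genes, Hdac4 stood out by 1 mouse. Hdac4 (chr1:91928779-92180341, minus strand) binds MEF2 factors and is held in the cytoplasm by 14-3-3 proteins. It had 60.6, 62.0, 60.9, 53.2 and 55.7 CPM in CM mice 1 to 5 and 63.8, 68.0, 72.1, 51.7 and 70.2 CPM in CM/miR-126Δ/Δ mice 1 to 5. CM/miR-126Δ/Δ mice 1, 2, 3 and 5 stood above all CM mice, and mouse 4 was the lowest of the 10. The log2 fold change was 0.16 with a standard error of 0.0828 and a 95% interval from -0.02 to 0.33 (edgeR p = 0.0789, adjusted p = 0.765; exact two-sided permutation p = 0.135).

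With the mouse number as a block, Hdac4 had a log2 fold change of 0.15 and an unadjusted p of 0.0322, and an adjusted p of 0.487 over all genes. Without CM/miR-126Δ/Δ mouse 4 the log2 fold change was 0.24, with an unadjusted p of 0.00168 and an adjusted p of 0.281. That mouse had the highest sum of granulocyte markers, 348.9 CPM against 1.48 to 22.5 CPM in the other CM/miR-126Δ/Δ mice. In CM mice, the lower Hdac4 values were those of mice 4 and 5, with granulocyte sums of 29.9 and 153.7 CPM, while mouse 3 had a similar sum of 29.9 CPM and a higher Hdac4 value. CM mice 4 and 5 and CM/miR-126Δ/Δ mouse 4 were also male. Hdac4 ran from 60.6 to 72.1 CPM in female and from 51.7 to 70.2 CPM in male mice. The part of granulocytes or of sex in the Hdac4 result was not tested.

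**Figure D3:**
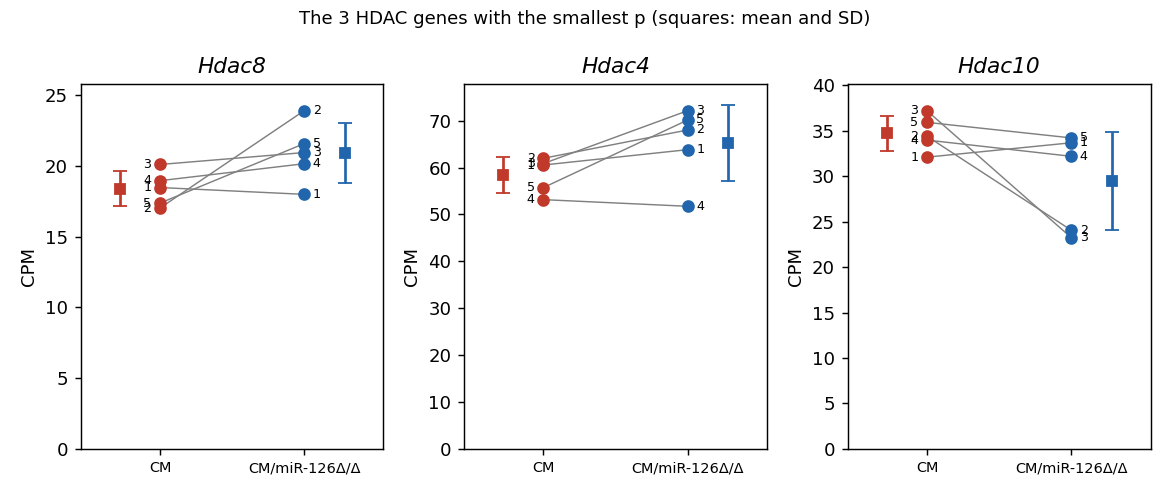
CPM of Hdac8, Hdac4 and Hdac10 in each mouse, with lines joining the mice of the same number, squares at the mean of the 5 mice of a genotype and bars of 1 SD. Hdac8 and Hdac4 are higher in the CM/miR-126Δ/Δ mouse of 4 of 5 pairs, and the lower Hdac10 mean of CM/miR-126Δ/Δ mice rests on mice 2 and 3.

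Hdac7 (chr15:97792664-97844502, minus strand), known for its roles in lymphoid and endothelial cells, had 105.5 to 133.5 CPM in CM and 120.6 to 137.2 CPM in CM/miR-126Δ/Δ mice. CM mice 1 and 3 were the lowest, near 106 CPM, and the other 8 libraries overlapped. The log2 fold change was 0.09 with a standard error of 0.0721 and a 95% interval from -0.06 to 0.25. Hdac5 (chr11:102195747-102230172, minus strand), a MEF2 repressor like Hdac4, had 56.3 to 66.3 CPM in CM and 57.4 to 60.6 CPM in CM/miR-126Δ/Δ mice, so that the CM/miR-126Δ/Δ values lay inside the CM range. Its log2 fold change was -0.04 (standard error 0.0539). Its SD within genotypes, 0.0681 in log2 CPM, was the smallest of the 10 genes, at the 5.35th percentile. Hdac9, the remaining class IIa gene, was not one of the 10 chosen and had 1.25 RPKM in CM and 1.45 RPKM in CM/miR-126Δ/Δ mice.

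In class IIb, Hdac10 had the largest size of difference in the family. Hdac10 (chr15:89123303-89128700, minus strand), the polyamine deacetylase, had 32.1, 34.4, 37.2, 34.0 and 35.9 CPM in CM mice 1 to 5 and 33.7, 24.1, 23.2, 32.2 and 34.2 CPM in CM/miR-126Δ/Δ mice 1 to 5. CM/miR-126Δ/Δ mice 2 and 3 were far below the other 8 mice, and CM/miR-126Δ/Δ mice 1, 4 and 5 lay among the CM mice. The means were 34.7 ± 1.95 and 29.5 ± 5.37 CPM (SD, n = 5), with a log2 fold change of -0.24, a standard error of 0.1106 and a 95% interval from -0.47 to 0.00 that reached just past 0. The test was not passed (edgeR p = 0.0515, adjusted p = 0.757; exact two-sided permutation p = 0.0635). With the mouse number as a block, the log2 fold change was -0.25, with an unadjusted p of 0.0328 and an adjusted p of 0.491. Leaving out CM/miR-126Δ/Δ mouse 3 gave -0.16 and mouse 2 gave -0.17. The Rn45s share was 22.6% in CM/miR-126Δ/Δ mouse 3, the highest of all libraries, and 18.5% in CM/miR-126Δ/Δ mouse 2. It was 18.5% in CM mouse 2 and 18.6% in CM/miR-126Δ/Δ mouse 5, whose Hdac10 values were 34.4 and 34.2 CPM. With Rn45s left out of the library sizes the log2 fold change of Hdac10 was -0.23. CM/miR-126Δ/Δ mice 2 and 3 were also female. Hdac10 ran from 23.2 to 37.2 CPM in female and from 32.2 to 35.9 CPM in male mice. With sex as a covariate its log2 fold change was -0.24, with an unadjusted edgeR p of 0.0339 and an adjusted p of 0.692. The part of the Rn45s share or of sex in the low Hdac10 values was not tested.

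Hdac6 (chrX:7930122-7947889, minus strand), the tubulin deacetylase, had 38.2, 39.1, 31.1, 38.9 and 34.1 CPM in CM mice and 41.3, 32.3, 28.9, 30.5 and 37.1 CPM in CM/miR-126Δ/Δ mice. Both the highest and the lowest value were from CM/miR-126Δ/Δ mice. The log2 fold change was -0.09 with a standard error of 0.1023 and a 95% interval from -0.31 to 0.12. Hdac6 and Hdac8 lie on the X chromosome: Hdac6 averaged 35.2 CPM in the 6 female and 35.2 CPM in the 4 male mice, and Hdac8 averaged 19.7 and 19.5 CPM.

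Hdac11 (chr6:91156815-91174683, plus strand), the only class IV enzyme, removes long-chain fatty acyl groups. It had 16.2, 15.2, 14.9, 19.1 and 19.9 CPM in CM mice and 18.6, 15.4, 14.1, 17.5 and 18.3 CPM in CM/miR-126Δ/Δ mice. The 2 genotypes covered nearly the same range, with a log2 fold change of -0.03, a standard error of 0.1125 and a 95% interval from -0.27 to 0.22. The sign turned with upper-quartile scaling and when some libraries were left out. In each genotype mice 2 and 3, both female, had the lowest values. Hdac11 averaged 15.7 CPM in the 6 female mice (14.1 to 18.6) and 18.7 CPM in the 4 male mice (17.5 to 19.9). With sex as a covariate its log2 fold change was -0.02, with a standard error of 0.0922. The part of sex in the Hdac11 values was not tested.

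Among the genes that work with the HDAC enzymes, none passed the adjusted test either. The 94 genes were in 10 lists: sirtuins, the NuRD, SIN3, CoREST, NCoR/SMRT and MiDAC complexes, class IIa partners, histone acetyltransferases, proteins the study tied to HDAC8, and cohesin. Of these, 0 had an adjusted p under 0.05 by edgeR (background 0.0107% of genes tested) or by DESeq2 (45 genes over the whole table). None met the study's cutoffs (background 0.288% of genes tested). Calls this rare would be absent from most lists of this size. At an unadjusted p under 0.05, edgeR gave 6 (DESeq2 gave 7, background 6.07%), or 6.38% (background 6.61%), of which 1 was higher (background 3.29%) and 5 were lower (background 3.32%) in CM/miR-126Δ/Δ mice. With the mouse number as a block the count was 13 (background 8.89%), and without CM/miR-126Δ/Δ mouse 4 it was also 13 (background 9.52%). Genotypes overlapped for all 94, and only 1.1% of genes tested and 1.38% of expressed genes had no overlap. The median log2 fold change was -0.02, the same as for expressed genes. Of the 94 intervals, 88 lay within a 1.5-fold change, as did those of 86.7% of expressed genes (55.4% of genes tested). These counts are therefore common among genes of such levels.

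Counts by list were small, and 6719 of the 11682 expressed genes had log2 fold changes below 0. Of the 7 sirtuins, the NAD-dependent class III deacetylases, Sirt7 had a log2 fold change of -0.23 (edgeR p = 0.0366, exact permutation p = 0.0794) and 6 of 7 values were below 0. Of 11 NuRD genes, 7 CoREST genes and 5 NCoR/SMRT genes, 0 had an unadjusted p under 0.05. Of 13 SIN3 genes, the subunit Sap30 had a log2 fold change of -0.21 (edgeR p = 0.0427, exact permutation p = 0.0476), with 10 of 13 values below 0 and a median of -0.05. Of 3 MiDAC genes, Trerf1 had a log2 fold change of 0.15 (edgeR p = 0.033, exact permutation p = 0.0397) and was higher in the CM/miR-126Δ/Δ mouse of 5 of 5 pairs.

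Of 21 class IIa partners, which include MEF2 factors, kinases and 14-3-3 proteins, Ywhae, a 14-3-3 protein, had a log2 fold change of -0.16 (edgeR p = 0.0424, exact permutation p = 0.0317). Of 10 histone acetyltransferases, Hat1, which acetylates newly made histone H4, had a log2 fold change of -0.16 (edgeR p = 0.0309, exact permutation p = 0.0317). These p-values are two-sided and unadjusted. The edgeR-adjusted p of each of these 5 genes was between 0.746 and 0.748.

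**Figure D4:**
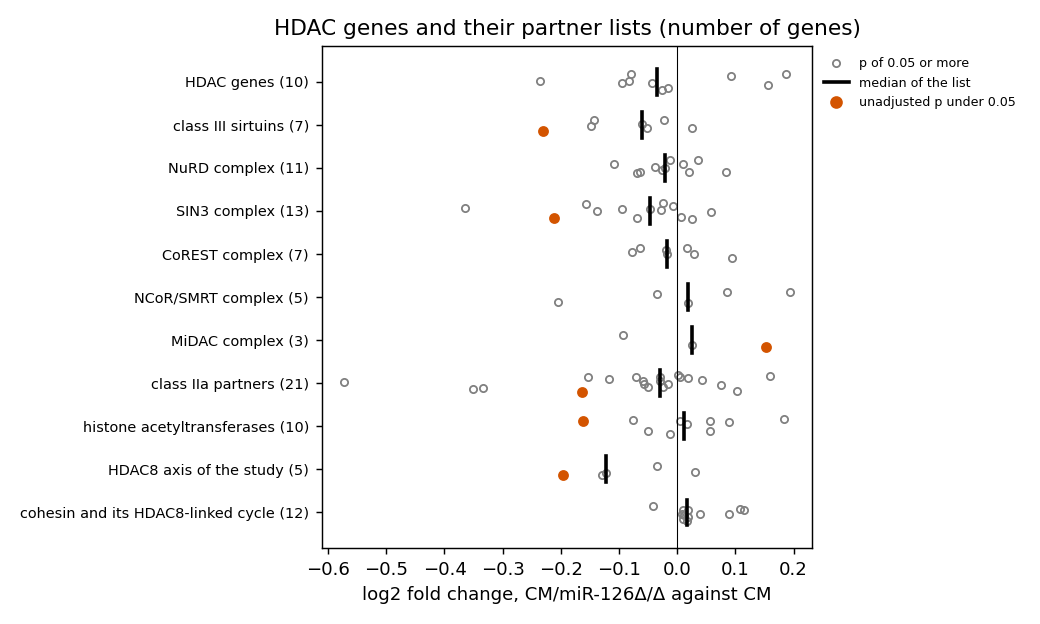
Log2 fold changes of the HDAC genes and of 94 related genes in 10 lists, with 1 point per gene, the number of genes in brackets and a black bar at the median of each list. Filled points have an unadjusted p under 0.05, which holds for 0 of the HDAC genes and 6 of the related genes, and the list medians lie between -0.12 and 0.03.

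The study's list around HDAC8 holds Mdm2, the ubiquitin ligase of HDAC8, Pa2g4, which encodes the ErbB3-binding protein EBP1, and Ran, Xpo5 and Rcc1 of the export of microRNA precursors from the nucleus. Pa2g4 had 296.0, 283.3, 266.7, 295.3 and 259.1 CPM in CM mice 1 to 5 and 246.1, 227.1, 267.0, 242.6 and 239.4 CPM in CM/miR-126Δ/Δ mice 1 to 5. All CM/miR-126Δ/Δ mice but mouse 3 stood below every CM mouse. The log2 fold change was -0.20 with a standard error of 0.0635 (edgeR p = 0.00789, adjusted p = 0.661; exact permutation p = 0.0238), the smallest p of the 94 genes.

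The other 4 genes of that list did not reach an unadjusted p of 0.05 in the fit without a block. Ran, the GTPase of nuclear transport, had a log2 fold change of -0.13 (edgeR p = 0.106, exact permutation p = 0.159), and Rcc1, its exchange factor, had -0.12 (edgeR p = 0.118, exact permutation p = 0.183). With the mouse number as a block, Ran had a log2 fold change of -0.12 with an unadjusted p of 0.048 and an adjusted p of 0.553. Both genes were lower in the CM/miR-126Δ/Δ mouse of 4 of 5 pairs. Xpo5, the carrier of precursor microRNAs, had 0.03 (edgeR p = 0.643, exact permutation p = 0.69), and Mdm2 had -0.03 (edgeR p = 0.613, exact permutation p = 0.683). Of the 12 genes of cohesin and its loading and acetylation cycle, through which Hdac8 recycles Smc3, 11 had log2 fold changes above 0. Among the 11682 expressed genes 4963 were above 0. Of the 12 genes, 0 had an unadjusted p under 0.05 and the median was only 0.02. Smc3 itself had a log2 fold change of 0.02 (edgeR p = 0.814, exact permutation p = 0.802).

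By Pearson correlation of log2 CPM over the 10 libraries, the genes whose pattern was most like that of Hdac8 among 11681 candidates were 1110019D14Rik (r = 0.94, Spearman's rho = 0.87), Trim5, which has close paralogs (r = 0.93, rho = 0.98), and Apex2 (r = 0.92, rho = 0.95), the last also on the X chromosome. The libraries share scaling and the genotype difference, and the highest values among so many candidates are large by selection, so these are a description without a test. None of the HDAC genes came near: Hdac4 had r = 0.48, Hdac10 had r = -0.64 and Hdac6 had r = -0.55 with Hdac8.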

How the data were processed

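LSK cells (CM, 5 mice, and CM/miR-126Δ/Δ, 5 mice) were sequenced after ribosomal RNA depletion with a strand-marking kit. The authors trimmed single reads, aligned them to mm10 with TopHat2 and, with HTSeq (0.6.1p1 in the submitters' processing notes), counted reads per RefSeq gene; whether counting used the strand is not given in the sources used here. The deposited counts are whole reads per gene without normalization. The deposited normalized table is a signal: each count divided by 1 constant per library, and not by length. Whole reads were recovered from 100% of its 250780 values (within 0.001 reads), so the counts were used. The planned design took RPKM from it; it was instead calculated here, as TMM-scaled CPM per kilobase of exon.

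Genes with 0 counts in every library were dropped, and the remaining 18747 entered edgeR 4.0.16 in R 4.3.3 (TMM factors, quasi-likelihood F-test in its earlier form, genotype only, two-sided), with DESeq2 1.42.0 as an alternative; p-values were adjusted by Benjamini-Hochberg over all genes and measure the spread between mice. Standard errors were derived from the log2 fold change and its F value. Scripts were tested on simulated data. CPM is TMM-scaled; correlations used log2 CPM with a prior count of 2. A count of 0 allows up to 3 counts, at most 0.127 CPM, counting error only. No 2 libraries agreed within sampling noise. Copies of transcripts were sought with BLAST+ 2.17.0.

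Mouse numbers 1 to 5 come from the labels. Deviations from the genotype means correlated within all 5 pairs of equal number (0.172 to 0.465, mean 0.330, other pairs -0.085), so a replicate block was fitted as an alternative. A one-sided exact permutation over the 120 pairings gave p = 0.0333, but only 5 of 10 libraries were most like their own number. Mice of equal number were also of equal sex, and the part of sex in these correlations was not tested. Beyond the number, the labels used here give no pairing of the mice.

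The members and lists were chosen with earlier results of these data known. Every HDAC gene is described, and related genes are named at an unadjusted p under 0.05 (at most 4 per list) or as part of the HDAC8 list.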

Additional observations from a re-analysis of the deposited data

Results flagged for a closer look

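Of 40 groups of 5 mice (10 HDAC genes and 10 named related genes in each genotype), in 2 a single mouse stood well apart from the rest, and about 2 such groups arise by chance at the 5% level used. Sap30, a SIN3 subunit, had 26.7 CPM in CM/miR-126Δ/Δ mouse 4, whose nearest neighbour had 21.0 CPM. That mouse also had the highest granulocyte marker sum, 348.9 CPM, and the part of those cells in the value was not tested. Xpo5 had 161 CPM in CM mouse 1, against 139 CPM in the nearest CM mouse. None of the 10 HDAC genes had such a mouse in either genotype.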

How the results depend on the processing

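The counts of genes called and the log2 fold changes of the 10 HDAC genes and 10 named related genes were recomputed under 18 alternatives; levels, shares, overlaps, medians and correlations were not. HDAC genes at an adjusted p under 0.05 or the study's cutoffs remained at 0, as did related genes, under all 18; the lowest adjusted p of an HDAC gene was 0.281 (Hdac4 without CM/miR-126Δ/Δ mouse 4). At an unadjusted p under 0.05, HDAC genes numbered 2 with upper-quartile factors (Hdac8 and Hdac4), 1 with DESeq2, with edgeR's filterByExpr and with a mean RPKM of at least 1 required (Hdac8 each time), 2 with the replicate block, 1 with sex as a covariate (Hdac10) and 0 to 2 with 1 library left out. Related genes numbered 13 with the replicate block and 2 to 13 with 1 library left out, against 6. Over all genes tested, the share at this p was 6.61%, with 8.89% under the block and 4.13 to 9.52% with 1 library left out. It was 6.49% with upper-quartile factors, 6.07% with DESeq2 and 6.95% with sex as a covariate. Among the genes kept by filterByExpr it was 7.58%, and with a mean RPKM of at least 1 required it was 7.67%.

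Over the whole table, genes at an adjusted p under 0.05 numbered 2, and 4 with upper-quartile factors, 45 with DESeq2, 4 with filterByExpr, 4 with the RPKM minimum, 20 with the replicate block, 4 with sex as a covariate and 1 to 7 with 1 library left out. The study's cutoffs gave 54, 115 with the replicate block and 33 (without CM/miR-126Δ/Δ mouse 5) to 128 (without CM mouse 3). Unadjusted, 1239 became 770 to 1773 with 1 library left out, 770 being without CM/miR-126Δ/Δ mouse 2. The cause of these shifts was not tested. Of the 20 genes, the replicate block moved Hdac4, Hdac10 and Ran to an unadjusted p under 0.05 and changed no call at an adjusted p under 0.05.

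Of 180 recomputed log2 fold changes of HDAC genes, 12 changed sign, all for genes near 0. Hdac3 gave 0.012 with upper-quartile factors, 0.0024 with filterByExpr, 0.0043 with the RPKM minimum, and -0.031 to 0.014 over the leave-one-out fits (above 0 without CM mouse 1 or 4 or CM/miR-126Δ/Δ mouse 2 or 3). Hdac11 gave 0.0016 with upper-quartile factors and -0.064 to 0.051 over the leave-one-out fits (above 0 without CM mouse 4 or 5 or CM/miR-126Δ/Δ mouse 2 or 3). Of the related genes, Mdm2 gave -0.054 to 0.022, above 0 without CM mouse 2. The scalings moved the median of expressed genes by at most 0.028. With 5 mice per genotype at this depth and spread, a true difference anywhere inside the interval given for a gene remains possible.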
